A study of Arabidopsis thaliana with 123 samples.

Results

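The nuclear genes for the light-harvesting antenna and the subunits of photosystem I and photosystem II were followed through seed maturation of Arabidopsis thaliana in wild-type Col-0 and in 10 mutant or transgenic lines. The set held 40 listed genes of the 37336 in the count table, picked by name, with earlier results of these data known. By role there were 4 antenna genes of photosystem I (LHCA1 to LHCA4), 9 genes of the trimeric antenna of photosystem II (5 LHCB1 copies, 3 LHCB2 copies and LHCB3) and 5 genes of its minor, monomeric antenna (3 LHCB4 copies, LHCB5 and LHCB6). The rest were 12 core genes of photosystem I (PSAD-1 to PSAO), 5 genes of the oxygen-evolving complex (PSBO1, PSBO2, PSBP-1, PSBQA and PSBQ-2) and 5 other subunits of photosystem II (PSBR, PSBS, PSBW, PSBX and PSBY). For the genes that return most often below, the file's identifiers and the RefSeq coordinates (assembly TAIR10.1) are given here. LHCB1.3 (AT1G29930) lies on the plus strand of chromosome 1 at 10477885 to 10479114, LHCB4.1 (AT5G01530) on the plus strand of chromosome 5 at 208866 to 210548 and LHCB4.3 (AT2G40100) on the plus strand of chromosome 2 at 16745628 to 16747424. PSAD-2 (AT1G03130) lies on the minus strand of chromosome 1 at 753307 to 754262, PSBO2 (AT3G50820) on the minus strand of chromosome 3 at 18890874 to 18892508 and PSBS (AT1G44575) on the plus strand of chromosome 1 at 16870221 to 16873427.

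Light-harvesting proteins bind chlorophyll and pass absorbed energy to the 2 photosystems, which drive electron transport across the thylakoid membrane. The subunits studied here are encoded in the nucleus and imported into the plastid, whereas the reaction-centre proteins themselves are encoded in the plastid genome. Arabidopsis embryos are green while they fill, and they lose chlorophyll as they mature. ABI3 is a transcription factor of seed maturation, and its strong loss-of-function mutants shed green, desiccation-intolerant seed. DOG1 promotes seed dormancy, ABA2 is an enzyme of abscisic acid synthesis and CYP707A2 is an enzyme that breaks abscisic acid down.

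Polyadenylated RNA of seed was sequenced in 123 libraries of 43 groups, each a line at 1 stage, with 3 libraries in 37 groups and 2 in 6. Every line was in the Col-0 accession. Plants were harvested in a pair of experimental rounds, batch A with 31 libraries and batch B with 92, and stages were given in days after pollination (DAP) with dry seed at 26 DAP or later. In batch A, abi3-6 was sampled at 16, 18, 20 and 22 DAP and wild type at 12, 14, 16, 18, 20, 22 and 24 DAP and as dry seed. In batch B, abi3-6 was sampled at 24 DAP and as dry seed. The single mutant abi3-12, the double mutant abi3-12 dog1-4 and the triple mutant abi3-12 dog1-4 cyp707a2 were sampled at 18, 20, 22 and 24 DAP and as dry seed, and dog1-4 at 20, 22 and 24 DAP and as dry seed. Dry seed alone was sampled of aba2-1, of dog1-4 aba2-1, of abi3-12 aba2-1, of the triple mutant abi3-12 dog1-4 aba2-1 and of L2-1, a transgenic line that carries the Cvi allele of DOG1 in Col-0. Wild type of batch B was sampled at 18, 20, 22 and 24 DAP and as dry seed. Each replicate came from a pool of seed from several siliques, so that p-values measure the spread between these libraries. Lines were compared with wild type of the same stage and the same batch only.

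Libraries held 2577281 to 20277489 counts. Levels are given as counts per 1000000 counts (CPM) after TMM scaling, a correction for a few genes taking many of the counts, and 1 count was worth 0.0438 to 0.426 CPM over the libraries. Members were tested with edgeR's quasi-likelihood test among the 20414 genes that batch A kept and the 20912 that batch B kept, and called at a Benjamini-Hochberg adjusted p under 0.05 (called higher, called lower or not called; "all genes" in brackets gives the share of all genes tested that was called). Differences between groups are on the log2 scale, each with its standard error (SE) after the sign ±. All 40 members were tested in both batches, but several of them passed the filter on low counts only through the groups where they were high. In bulk seed, fewer cells of a type and less RNA per cell cannot be told apart. DOG1 reads were at 0.661 to 1.4 CPM in the 15 dry-seed libraries with dog1-4, against 24.4 to 40.6 CPM in wild type, and CYP707A2 was at 9.3 to 10.5 CPM in the triple mutant with cyp707a2, against 58.3 to 75.9 CPM in wild type. ABI3 was at 136 to 156 CPM in abi3-6 dry seed and at 115 to 242 CPM in the 15 dry-seed libraries with abi3-12, against 192 to 207 CPM in wild type. ABA2 was low in dry seed in every line, at 1.5 to 7.72 CPM with aba2-1 against 1.78 to 2.15 CPM in wild type, so its level does not check those labels.

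A few libraries stood apart from the others of their group in these genes. Replicate 3 of wild type at 22 DAP in batch B had 64 CPM over the 5 LHCB1 copies, against 5.37 CPM in the next library of that group. Replicate 2 of abi3-12 at 22 DAP had 119 CPM, against 13.7 CPM in the next, and replicate 1 of the double mutant at 20 DAP had 61.1 CPM, against 9.81 CPM. Results at these stages are given with and without them where a count of members called changes by over 1.5 times or its majority direction changes. Smaller changes of a count are not all given. Seed-filling messages (9 genes of storage proteins and oleosins) were also much lower in some mutants. They summed to 3660 to 7350 CPM in abi3-6 dry seed and to 7390 to 12600 CPM in the double mutant, against 62300 to 72200 CPM in wild type. Marker genes of silique wall and leaf epidermis (FUL, FAMA, SPCH, MUTE and KAT1) summed to at most 6.21 CPM in any library. They were at 4.02 to 5.68 CPM in abi3-6 dry seed and 2.99 to 3.22 CPM in the double mutant, against 0.254 to 0.549 CPM in wild type. FUL, a fruit-wall gene, was above 0 in 2 of the 123 libraries, with a highest count of 2. Over all libraries FAMA, SPCH and MUTE had 911, 742 and 1479 counts, against 4 for FUL and 16 for KAT1. The sums thus follow FAMA, SPCH and MUTE, and the tissue these counts came from was not tested. Endosperm genes (ZOU and EPR1) summed to 1540 to 2540 CPM in abi3-6 dry seed and 5100 to 6750 CPM in the double mutant, against 21900 to 23200 CPM in wild type, with ZOU at 0 in all 3 groups. Seed-coat genes (BAN, TT10 and MUM2) summed to 8.18 to 12.7 CPM in abi3-6 and 5.55 to 6.33 CPM in the double mutant, against 1.46 to 1.97 CPM in wild type. In each of these groups 1 of the 3 seed-coat genes was at 0. The part of these differences in the results was not tested.

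The 5 LHCB1 copies were the largest block of member counts in green seed, and their coding sequences are closely related. The first 60 coding bases of each are shown as an example (RefSeq sequences, assembly TAIR10.1). Capitals mark bases that differ from LHCB1.3 at the same position.
LHCB1.3: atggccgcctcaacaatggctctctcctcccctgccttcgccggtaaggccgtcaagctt
LHCB1.1: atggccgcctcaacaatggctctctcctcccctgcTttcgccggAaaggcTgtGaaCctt
LHCB1.2: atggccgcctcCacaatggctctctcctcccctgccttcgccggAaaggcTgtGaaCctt
LHCB1.5: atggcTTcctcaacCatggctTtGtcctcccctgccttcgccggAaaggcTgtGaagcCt
LHCB1.4: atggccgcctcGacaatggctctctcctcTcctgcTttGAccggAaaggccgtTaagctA
LHCB1.1 and LHCB1.2 differed from LHCB1.3 at 31 and 29 of 804 coding bases. Each differed at 5 of the 60 shown, so the stretch shown differs more than the whole coding sequence. LHCB1.1, LHCB1.2 and LHCB1.3 lie next to each other on chromosome 1, and LHCB1.4 and LHCB1.5 on chromosome 2. Of all 100-base windows of their transcripts, 1.51% to 4.44% also occurred in another gene, and 9.87% and 12.4% did so for LHCB2.1 and LHCB2.2. The other 33 members shared no such window. Single LHCB1 and LHCB2 copies are therefore uncertain where reads could have been split, and their sums are given beside them. In wild type of batch A at 14 DAP, LHCB2.2 had counts of 0, 93 and 0, where LHCB2.1 had 246, 299 and 207. PSAE-1 had counts of 24, 0 and 0 at 18 DAP. The cause of such zeros was not tested, and bounds for members with no count cover counting error only.

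The promoters of 3 antenna genes with different courses are shown next, as the 250 bases before the annotated start (RefSeq, TAIR10.1). Capitals mark matches on either strand to the G-box (CACGTG), a site of bZIP and bHLH factors, the RY core (CATGCA), the I-box (GATAAG) and CCAATC.
LHCB1.3, chr1:10477635-10477884, plus strand: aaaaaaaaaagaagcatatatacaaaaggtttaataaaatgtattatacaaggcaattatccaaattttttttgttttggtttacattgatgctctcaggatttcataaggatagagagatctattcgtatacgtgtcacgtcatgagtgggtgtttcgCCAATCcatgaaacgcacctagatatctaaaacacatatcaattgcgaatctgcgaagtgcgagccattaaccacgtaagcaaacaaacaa
LHCB4.1, chr5:208616-208865, plus strand: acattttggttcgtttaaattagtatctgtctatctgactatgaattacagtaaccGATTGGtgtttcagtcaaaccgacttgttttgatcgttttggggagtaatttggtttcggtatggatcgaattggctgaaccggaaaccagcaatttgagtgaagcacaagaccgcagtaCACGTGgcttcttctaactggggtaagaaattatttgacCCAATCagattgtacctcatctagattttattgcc
LHCB4.3, chr2:16745378-16745627, plus strand: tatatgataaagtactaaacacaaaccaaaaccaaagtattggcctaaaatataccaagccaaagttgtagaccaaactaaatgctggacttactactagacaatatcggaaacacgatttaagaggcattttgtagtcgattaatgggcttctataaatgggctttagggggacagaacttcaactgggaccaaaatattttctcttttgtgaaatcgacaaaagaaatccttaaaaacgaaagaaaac
LHCB4.1 held 1 G-box and 2 CCAATC matches, LHCB1.3 held 1 CCAATC match and LHCB4.3 held none of the 4 motifs in this window. A G-box stood in 8 of the 40 member promoters (20%), against 6.49% of 27443 promoters of the same length. CCAATC stood in 11 members (27.5%, against 10.2% of all promoters) and the I-box in 9 (22.5%, against 12.3%). The RY core, the element bound by ABI3 and related B3-domain factors, stood in 3 members (7.5%, against 8.43%). These matches are a description of letters in the window.

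In wild type the members were at their highest at 12 DAP and fell steeply until 18 DAP. All 40 were called lower at 14 DAP than at 12 DAP, where 19.7% of all genes tested were called lower and 15.9% higher. At 16 DAP 37 of 40 were called lower than at 14 DAP (all genes, 19.9% lower), and the others, LHCB2.2, LHCB2.3 and PSBO2, were not called. The median log2 difference of the members was -2.35 in the first step and -4.15 in the second, against 0.00 over all genes in both. As a share of all counts, the 40 members together took 0.871, 0.897 and 0.932% in the 3 libraries at 12 DAP and 0.165, 0.144 and 0.13% at 14 DAP. They took 0.0121, 0.0129 and 0.0144% at 16 DAP, 0.00858, 0.00893 and 0.00884% at 18 DAP and 0.0193, 0.0186 and 0.0189% in dry seed. No stage from 16 DAP onward reached the lowest library of 14 DAP. Seed-filling messages summed to 557000 to 616000 CPM at 18 DAP and 56300 to 60700 CPM in dry seed. Their part in the shares was not tested. After TMM scaling the 40 members summed to 136 ± 4.91 CPM at 18 DAP and 181 ± 5.44 CPM in dry seed (SD, n = 3 each).

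**Figure D1:**
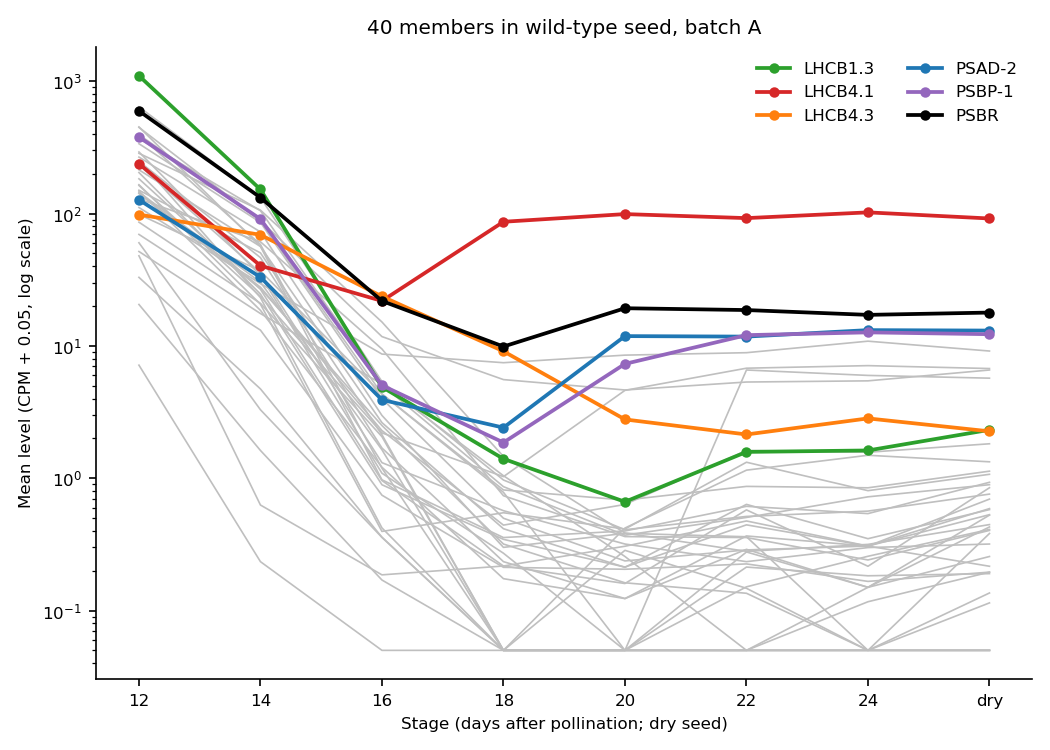
Mean level of each of the 40 members in wild type of batch A (y axis, CPM plus 0.05, log scale) by stage (x axis, DAP and dry seed; n = 3 libraries, 2 at 24 DAP). Grey lines are the other members, and the coloured lines show LHCB4.1 higher at 18 DAP than at 16 DAP while LHCB1.3 and LHCB4.3 are lower, and PSAD-2, PSBP-1 and PSBR higher at 20 DAP than at 18 DAP.

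Among the antenna genes, the LHCB1 copies together had 2400, 2390 and 2540 CPM in the libraries of 12 DAP. They had 424, 399 and 312 CPM in those of 14 DAP, and the libraries of 16 DAP had 10.2, 13.3 and 14.3 CPM. LHCB1.3, the copy with most counts, was lower at 14 DAP than at 12 DAP (log2 difference -2.85 ± 0.19, adjusted p 2.34e-11). PSBO2, a copy of the manganese-stabilising subunit of the oxygen-evolving complex, had the largest fall of the first step, with 0.598, 0.731 and 0.4 CPM at 14 DAP against 46.2, 49.3 and 48.3 CPM at 12 DAP (log2 difference -6.36 ± 0.34, adjusted p 3.22e-13). The other copy, PSBO1, had 94.7, 85.1 and 84.5 CPM at 14 DAP against 433, 465 and 447 CPM at 12 DAP (log2 difference -2.35 ± 0.10, adjusted p 1.12e-14), and the stages overlapped for neither copy. The smallest change belonged to LHCB4.3, a copy of the minor antenna protein CP29, with 74.6, 68.4 and 63.9 CPM at 14 DAP against 93.1, 109 and 93.1 CPM at 12 DAP (log2 difference -0.51 ± 0.10, adjusted p 0.000182). PSBY, a small membrane subunit of photosystem II, had 66.3, 62.3 and 54.7 CPM at 14 DAP against 132, 139 and 116 CPM at 12 DAP (log2 difference -1.08 ± 0.11, adjusted p 1.89e-08).
From 14 to 16 DAP the largest fall was that of LHCB1.2 (log2 difference -5.90 ± 0.30, adjusted p 1.3e-13), while LHCB4.1 (log2 difference -0.88 ± 0.09, adjusted p 2.3e-08) and LHCB4.3 (log2 difference -1.54 ± 0.11, adjusted p 3.33e-11) fell by less.

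LHCB4.1, another CP29 copy, then turned upward. It had 80.1, 90.5 and 89.3 CPM at 18 DAP against 19.2, 22.9 and 23.3 CPM at 16 DAP, and the 3 libraries of 18 DAP all lay above those of 16 DAP (log2 difference 1.98 ± 0.09, adjusted p 1.32e-14). It was the 1 member called higher in this step, against 28 called lower (all genes, 22.9% higher and 28.6% lower). PSAN, a lumen-side subunit of photosystem I, had no count at 18 DAP against 1.05, 1.92 and 3.07 CPM at 16 DAP, at least 4.55-fold lower when 3 counts per library are taken as the floor (adjusted p 8.81e-05). With only the wild-type libraries of the 2 stages in the fit, 19 members were called in place of 29. From 18 DAP onward LHCB4.1 alone held more than 40% of all member counts in every wild-type group of batch A and reached 63.8% ± 2.3 at 18 DAP (SD, n = 3), against 2.5% ± 0.114 at 12 DAP. Per kilobase of transcript it was at 65.7 ± 4.99 CPM in dry seed (SD, n = 3), above PSBR at 22.7 ± 1.64 and PSAD-2 at 13.6 ± 1.1. At 12 DAP the per-kilobase order was different, with LHCB1.3 at 892 ± 45.1 and PSBR at 762 ± 38.2, against LHCB4.1 at 171 ± 7.88.

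Between 18 and 20 DAP a small group rose. Of the 40 members, 5 were called higher and 4 lower at 20 DAP (all genes, 24.4% higher and 29.9% lower). PSAD-2, one of a pair of genes for the ferredoxin-docking subunit of photosystem I, had 12.5, 9.97 and 13 CPM at 20 DAP against 2.24, 1.66 and 3.18 CPM at 18 DAP (log2 difference 2.35 ± 0.20, adjusted p 2.99e-10). PSBP-1, an extrinsic subunit of the oxygen-evolving complex, had 6.04, 7.31 and 8.44 CPM against 1.49, 2.27 and 1.67 CPM (log2 difference 2.01 ± 0.21, adjusted p 8.94e-09). Neither gene's libraries overlapped between the stages. PSBW, a small subunit that stabilises photosystem II with its antenna (log2 difference 2.23 ± 0.28, adjusted p 1.97e-07), and PSBR (log2 difference 0.96 ± 0.15, adjusted p 4.66e-06), which helps PSBP to bind, also rose. LHCB4.3 went the other way, with 3.08, 2.92 and 2.19 CPM at 20 DAP against 10.7, 8.76 and 7.69 CPM at 18 DAP (log2 difference -1.75 ± 0.19, adjusted p 1.55e-08). PSAE-2, a stromal subunit of photosystem I, had no count at 20 DAP against 0.622, 0.906 and 0.669 CPM at 18 DAP, at least 2.05-fold lower on the same floor (adjusted p 0.00545). PSAH-1 was called higher on counts of 3, 0 and 7 at 20 DAP and 0 at 18 DAP, which are too few for a fold. With only the wild-type libraries of the 2 stages in the fit, 5 members were called in place of 9.

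At 22 DAP 7 members were called higher than at 20 DAP and none lower (all genes, 22.6% higher and 19.1% lower). The number called was 4 with only both stages in the fit and 11 with DESeq2, as with libraries scaled by their totals alone. LHCB5, the minor antenna protein CP26, had a count of 0 in every library at 20 DAP and 6.44, 6.1 and 7 CPM at 22 DAP, at least 18.3-fold higher on that floor (adjusted p 3.44e-10). PSBP-1 had 12, 11.2 and 12.8 CPM at 22 DAP (log2 difference 0.72 ± 0.14, adjusted p 0.000215). The count was 4 without replicate 1 of 20 DAP and 4 without replicate 3 of 22 DAP. After 22 DAP edgeR called 0 members, and so did DESeq2. At 24 DAP against 22 DAP 2 members had an unadjusted p under 0.05 (all genes, 0.0294% called), and in dry seed against 24 DAP 3 did (all genes, 0.0245% called).

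Dry wild-type seed kept far less of these messages than seed at 12 DAP, with all 40 members called lower (all genes, 45.4% lower and 37.3% higher) and a median log2 difference of -8.54 when members at 0 stand at their bound. PSBQ-2, an extrinsic subunit of the oxygen-evolving complex, had a count of 0 in every dry-seed library against 408, 399 and 371 CPM at 12 DAP, at least 1600-fold lower (adjusted p 5.78e-17). LHCB4.1 had 99.7, 88 and 87.4 CPM in dry seed against 234, 230 and 251 CPM at 12 DAP, the smallest difference of the 40 (log2 difference -1.38 ± 0.08, adjusted p 3.84e-14). PSAD-2 differed by -3.27 on the log2 scale.

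The wild-type libraries of batch B started at 18 DAP. Markers differed between the batches at the same DAP. At 20 DAP seed-filling messages summed to 468000 to 693000 CPM in batch B, against 126000 to 173000 CPM in batch A. Seed-coat genes summed to 495 to 534 CPM, against 9.53 to 23 CPM. At 22 DAP the seed-coat sums were 45 to 76.9 CPM, against 0.46 to 2.36 CPM. Equal DAP in the 2 batches is thus not shown to be equal maturity, and the cause was not tested. At 20 DAP 5 members were called higher and 6 lower than at 18 DAP (all genes, 23.4% higher and 25.9% lower). The counts were 5 higher and 12 lower with DESeq2, 6 higher and 4 lower without replicate 2 of 18 DAP and 5 higher and 3 lower without replicate 2 of 20 DAP. LHCB4.1 had 135, 153 and 178 CPM at 20 DAP against 46.8, 80.6 and 70.8 CPM at 18 DAP (log2 difference 1.21 ± 0.14, adjusted p 4.51e-11). LHCB4.2 also rose (log2 difference 0.86 ± 0.18, adjusted p 4.95e-05), as did PSBW, with 1.03, 2.2 and 3.34 CPM at 20 DAP against 0, 1.35 and 0.59 CPM at 18 DAP (adjusted p 0.0148). The call of PSBW was lost without replicate 1 of 18 DAP (adjusted p 0.0556), without its replicate 3 (0.0817) and without replicate 3 of 20 DAP (0.172).
At 22 DAP 7 were called higher and 2 lower than at 20 DAP (all genes, 21.2% and 22.7%), or 18 higher and 1 lower with library totals and 17 higher and 4 lower with DESeq2. PSAD-2 was among the higher (log2 difference 1.55 ± 0.20, adjusted p 1.58e-09), as was LHCB5 (log2 difference 2.33 ± 0.57, adjusted p 0.000549). LHCA2, a photosystem I antenna gene, had 0.26, 0.55 and 4.76 CPM at 22 DAP and no count at 20 DAP, at least 4.64-fold higher on the floor of 3 counts (adjusted p 0.0247). Its call was lost without replicate 3 of 22 DAP, the library that stood apart (adjusted p 0.173), and without any 1 of the 20 DAP libraries (0.0577 to 0.0622). The members called lower were LHCB4.3 (log2 difference -1.51 ± 0.23, adjusted p 1.02e-07) and LHCB4.1 (log2 difference -0.51 ± 0.14, adjusted p 0.00154), which was at 0.10 and not called with library totals.
At 24 DAP 4 members were called lower than at 22 DAP and 0 higher (all genes, 16.2% lower and 14.5% higher). The largest fall was that of LHCB1.3, with 0.938, 1.35 and 1.81 CPM at 24 DAP against 2.25, 2.34 and 31.8 CPM at 22 DAP (log2 difference -2.59 ± 0.83, adjusted p 0.0123). Without replicate 3 of 22 DAP, the library that stood apart, it was -0.72 and not called (adjusted p 0.62), and with only both stages in the fit the adjusted p was 0.0861. The count was 8 without replicate 1 of 22 DAP, and 2 without any 1 of the 24 DAP libraries. It was 14 with DESeq2, 2 with no filter on low counts, 2 with library totals and 1 with only both stages in the fit. Without replicate 3 of 22 DAP the members were 1 higher and 2 lower. In dry seed against 24 DAP edgeR and DESeq2 each called 0 members, and 1 had an unadjusted p under 0.05 (all genes, 0.11% called).

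In dry seed of batch B 7 members were higher and 9 lower than at 18 DAP (all genes, 31.8% and 34.8%). PSBW had 6.68, 8.38 and 8.61 CPM in dry seed against 0, 1.35 and 0.59 CPM at 18 DAP (log2 difference 3.21 ± 0.38, adjusted p 3.01e-11). The other risers were PSAD-2, PSBR, PSBP-1, LHCB5, LHCB4.2 and PSAH-1, with log2 differences of 2.60 for PSAD-2, 1.64 for PSBR, 1.63 for PSBP-1, 2.64 for LHCB5 and 0.69 for LHCB4.2. PSAE-1, a stromal subunit of photosystem I, had no count in dry seed against 8.94, 7.94 and 8.07 CPM at 18 DAP, at least 31.3-fold lower (adjusted p 2.49e-11). Which direction held more members changed with the fit. The counts were 9 higher and 17 lower with DESeq2, 10 higher and 5 lower with library totals, 8 higher and 7 lower with only the 2 groups in the fit and 7 higher and 6 lower with no filter on low counts. They were also 7 higher and 6 lower without replicate 1 of 18 DAP, 8 higher and 5 lower without its replicate 2, 8 higher and 5 lower without replicate 1 of dry seed and 7 higher and 6 lower without its replicate 3.

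In abi3-6, nearly all members were far above wild type from 16 DAP, the first stage sampled, and their share of all counts climbed after 18 DAP. At 16 DAP 39 of 40 were called higher than in wild type and none lower (all genes, 33.3% higher and 33.2% lower), and at 18 DAP 38 were (all genes, 38.5% higher). From 20 DAP onward all 40 were called higher at each stage, where 44.1% (20 DAP), 43.6% (22 DAP), 42% (24 DAP) and 43.2% (dry seed) of all genes were called higher. The median log2 difference of the members, with members at 0 in wild type standing at their bound, was 5.29 at 16 DAP, 6.49 at 18 DAP, 8.52 at 20 DAP and 8.58 at 22 DAP. It was 9.04 at 24 DAP and 8.93 in dry seed, against medians over all genes of 0.00 to 0.18. The members that missed the test were LHCB2.3 at 16 and 18 DAP and LHCB4.1 at 18 DAP.

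The 40 members took 0.647 and 0.701% of all counts in the 2 abi3-6 libraries of 16 DAP, 0.52 and 0.531% at 18 DAP, 1.69 and 1.41% at 20 DAP and 2.75 and 2.08% at 22 DAP. In batch B they took 2.86, 2.35 and 2.7% at 24 DAP and 2.27, 2.64 and 2.85% in dry seed, against 0.0152, 0.0188 and 0.0202% in wild type at 24 DAP and 0.0141, 0.0169 and 0.0165% in wild-type dry seed. Both abi3-6 libraries of 22 DAP lay above the 3 wild-type libraries of 12 DAP in the same batch. Seed-filling messages fell in the same libraries, to 133000 to 152000 CPM at 16 DAP in abi3-6 against 590000 to 627000 CPM in wild type, and their part in the shares was not tested.

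**Figure D2:**
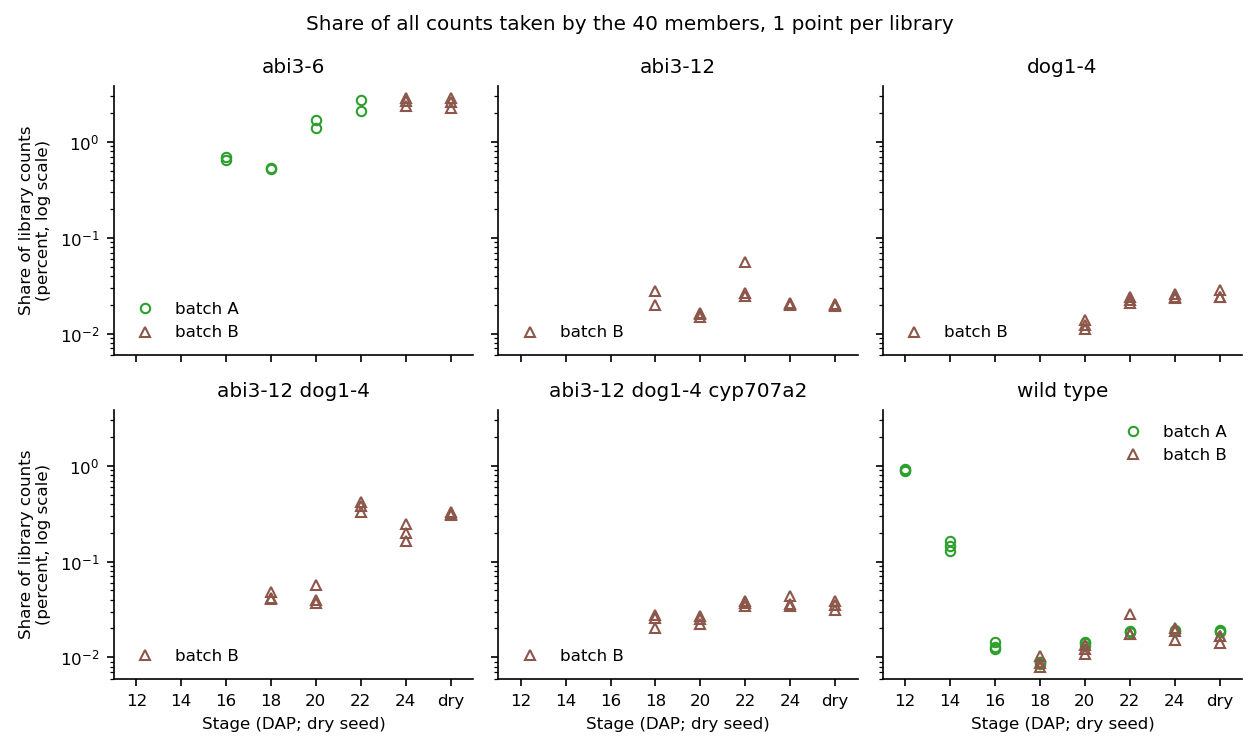
Share of all counts of a library that the 40 members took together (y axis, percent, log scale) by stage (x axis, DAP and dry seed), with 1 panel per line of 2 or more stages and wild type in the last panel, and 1 point per library. Circles are batch A and triangles batch B; abi3-6 lies between 0.52% and 2.86% at every stage, the double mutant climbs after 20 DAP, and wild type of batch A is at 0.0121% to 0.0144% by 16 DAP.

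At 16 DAP the largest difference was that of LHCB1.2, with 539 and 611 CPM in abi3-6 against 0.525, 1.32 and 0.92 CPM in wild type (log2 difference 9.25 ± 0.30, adjusted p 2.21e-18). LHCB1.3 had 653 and 791 CPM in abi3-6 against 3.42, 4.56 and 6.54 CPM (log2 difference 7.19 ± 0.26, adjusted p 1.43e-17). The smallest difference among called members was that of LHCB4.3, with 72.7 and 82.2 CPM against 23.5, 22.2 and 25.1 CPM (log2 difference 1.71 ± 0.11, adjusted p 1.68e-12). The libraries of the 2 lines did not overlap for any of these 3 genes.
Several members with no wild-type count are given by their bounds, which do not rank them against the others. At 18 DAP PSAH-1 had 74.5 and 75.5 CPM in abi3-6 and no count in wild type, at least 170-fold higher. At 20 DAP LHCB5 had 316 and 280 CPM in abi3-6 (at least 836-fold higher), and at 22 DAP PSAE-1 had 159 and 156 CPM (at least 506-fold higher). At 24 DAP LHCB2.1 had 149, 131 and 197 CPM (at least 662-fold higher). Wild type had no count of these genes at these stages.

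In dry seed, the antenna genes of photosystem I were at 181, 201 and 263 CPM for LHCA1 in abi3-6, against 1.28, 2.37 and 1.53 CPM in wild type (log2 difference 6.94 ± 0.36, adjusted p 1.43e-27). LHCA4 had 533, 691 and 762 CPM against 6.58, 7.45 and 6.19 CPM (log2 difference 6.61 ± 0.21, adjusted p 2.27e-39). LHCA4 had more message left in wild-type dry seed than the other 3 LHCA genes, whose means were 1.73 ± 0.572, 0.241 ± 0.226 and 0.296 ± 0.0607 CPM for LHCA1, LHCA2 and LHCA3 (SD, n = 3). The LHCB1 copies summed to 8630, 8430 and 9750 CPM in abi3-6 against 3.48, 3.22 and 5.02 CPM in wild type, and LHCB1.3 alone had 4500, 4190 and 4900 CPM against 1.83, 1.86 and 2.69 CPM (log2 difference 11.05 ± 0.79, adjusted p 1.77e-20). LHCB2.1 had 91.8, 158 and 184 CPM against 0, 0.254 and 0.0897 CPM (log2 difference 10.14 ± 0.50, adjusted p 4.03e-25). By role, the median log2 difference was 11.12 over the 9 trimer genes, 8.96 over the 4 LHCA genes, 9.76 over the 12 core genes of photosystem I and 4.60 over the 5 minor antenna genes. Where a gene had no wild-type count its fitted value depends on the prior count of the fit.

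The minor antenna split by gene. LHCB4.1 had 477, 546 and 522 CPM in abi3-6 against 69.5, 85.6 and 85.1 CPM in wild type (log2 difference 2.68 ± 0.14, adjusted p 3.55e-27), and LHCB4.3 had 15.4, 10.6 and 13.8 CPM against 3.29, 2.79 and 2.69 CPM (log2 difference 2.18 ± 0.20, adjusted p 8.97e-16). With PSAD-2 (2.73), these were the smallest log2 differences of the 40. LHCB5 had 500, 528 and 637 CPM against 6.77, 7.96 and 8.08 CPM (log2 difference 6.19 ± 0.29, adjusted p 1.37e-29). LHCB6, the minor antenna protein CP24, had 110, 142 and 202 CPM in abi3-6 and a count of 0 in every wild-type library, at least 569-fold higher (adjusted p 3.62e-27).

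Core genes of photosystem I showed the same direction. PSAD-1 had 195, 277 and 217 CPM in abi3-6 against 1.01, 1.44 and 1.17 CPM in wild type (log2 difference 7.56 ± 0.26, adjusted p 1.33e-36), while the other copy, PSAD-2, had 63.5, 112 and 73 CPM against 12, 11.9 and 13.5 CPM (log2 difference 2.73 ± 0.15, adjusted p 1.62e-25). In dry seed the PSAD pair thus differed in order between the lines. PSAD-1 was the higher copy in abi3-6 and PSAD-2 in wild type. Wild type at 12 DAP in batch A also had PSAD-1 higher, with 168, 170 and 158 CPM against 121, 131 and 127 CPM for PSAD-2. At 14 DAP PSAD-2 was the higher, with 34.8, 32.1 and 32 CPM against 24.3, 21.2 and 16.3 CPM. PSAH-1 and PSAH2 encode the subunit at which the antenna of photosystem II docks in state transitions. PSAH-1 had 221, 211 and 224 CPM against 1.37, 1.78 and 1.62 CPM (log2 difference 7.09 ± 0.24, adjusted p 6.92e-37), and PSAH2 had 100, 150 and 132 CPM against a count of 0 in every wild-type library (at least 479-fold higher). PSAE-1 had 210, 290 and 229 CPM against no count in wild type (at least 915-fold higher, adjusted p 1.27e-29). PSAG, at the antenna side of the core, had 268, 348 and 318 CPM against 0.183, 0.254 and 0.179 CPM (log2 difference 10.48 ± 0.35, adjusted p 1.32e-37). PSAN had 63, 82 and 103 CPM against 0.183, 0 and 0 CPM, and PSAO had 130, 144 and 194 CPM against 0.366, 0.339 and 0 CPM. Both were called higher, with adjusted p 1.59e-24 for PSAN and 7.9e-29 for PSAO.

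Of photosystem II, PSBO1 had 704, 757 and 789 CPM in abi3-6 against 1.01, 0.592 and 1.17 CPM in wild type (log2 difference 9.66 ± 0.40, adjusted p 1.78e-32) and PSBO2 had 195, 207 and 237 CPM against 0.64, 0.592 and 0.359 CPM (log2 difference 8.62 ± 0.40, adjusted p 1.63e-28). PSBP-1 had 442, 484 and 496 CPM against 13.4, 13.9 and 13.4 CPM (log2 difference 5.13 ± 0.21, adjusted p 2.48e-33). None of these 3 overlapped between the lines. PSBQA had 81, 96.2 and 105 CPM against 0.274, 0 and 0.449 CPM (log2 difference 8.57 ± 0.43, adjusted p 1.17e-26). PSBQ-2 had 102, 161 and 145 CPM against a count of 0 in every wild-type library (at least 512-fold higher). PSBS senses lumen acidity and is needed for the fast dissipation of excess light as heat, and it had 245, 198 and 261 CPM against 0.732, 0.423 and 0.269 CPM (log2 difference 8.92 ± 0.42, adjusted p 8.15e-30). PSBR had 917, 834 and 750 CPM against 21.5, 21.7 and 22.1 CPM (log2 difference 5.26 ± 0.18, adjusted p 2.08e-37), and PSBY had 87.4, 113 and 107 CPM against 0.183, 0.254 and 0.179 CPM (log2 difference 8.88 ± 0.36, adjusted p 3.5e-33).

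LHCB1 copies made up 45.3% ± 2.17 of member counts in abi3-6 dry seed (SD, n = 3), and 2.19% ± 0.486 in wild-type dry seed. In wild type at 12 DAP they made up 25.7% ± 0.858. Within abi3-6, 35 members were called higher and 2 lower at 22 DAP than at 16 DAP (all genes, 31.2% higher and 30.9% lower). LHCB2.3 had the largest rise, with 14.8 and 7.32 CPM at 22 DAP against 0.166 and 0.271 CPM at 16 DAP (log2 difference 5.63 ± 0.61, adjusted p 2.06e-06), and LHCB1.4 followed (log2 difference 3.85 ± 0.24, adjusted p 1.46e-12). LHCB1.3 had 3720 and 2810 CPM at 22 DAP against 653 and 791 CPM at 16 DAP (log2 difference 2.18 ± 0.23, adjusted p 1.4e-08). The members called lower were LHCB4.3 and PSAD-2 (log2 difference -0.36 ± 0.13, adjusted p 0.0168), the second of which lost its call without replicate 2 of 16 DAP (adjusted p 0.0606) and with library totals (0.722). LHCB4.3 had 11.8 and 11.9 CPM at 22 DAP against 72.7 and 82.2 CPM at 16 DAP (log2 difference -2.71 ± 0.14, adjusted p 2.15e-14). In wild type LHCB4.3 was called lower at 14 DAP than at 12 DAP and at each later step up to 20 DAP. LHCB4.1 had 392 and 361 CPM in abi3-6 at 22 DAP against 98, 90.6 and 88.4 CPM in wild type (log2 difference 2.03 ± 0.09, adjusted p 2.03e-16).

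**Figure D3:**
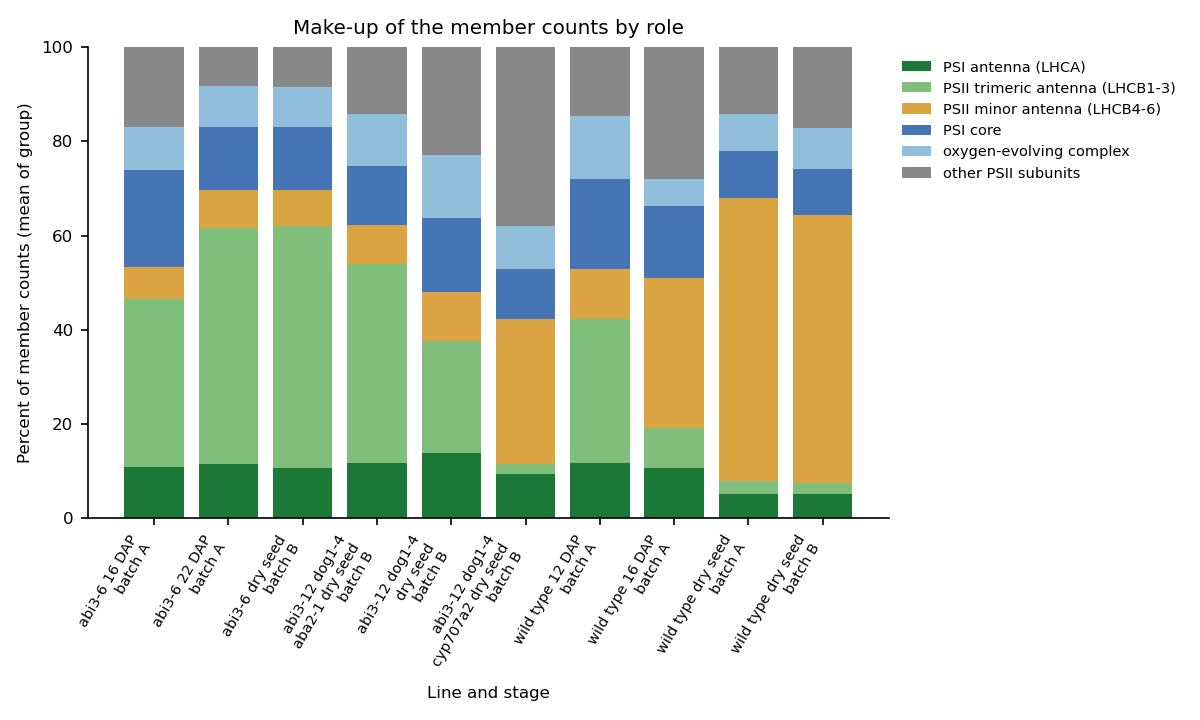
Make-up of the member counts by role (y axis, percent of member counts, mean over the libraries of a group, stacked to 100) in 10 groups (x axis), with mutant groups first and wild type last. The trimeric antenna makes up 51.4% in abi3-6 dry seed, against 2.39% in wild-type dry seed of batch B, where the minor antenna makes up 56.9% and LHCB4.1 alone 44.9%.

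At 24 DAP and in dry seed, the stages both lines shared in batch B, abi3-12 changed far fewer members than abi3-6. At earlier stages abi3-6 was sampled in batch A only. At 18 DAP 23 were called higher and 1 lower than in wild type (all genes, 15.2% higher and 13.9% lower), with 9 called when replicate 1 of abi3-12 was left out. The lower one was LHCB4.2 (log2 difference -0.57 ± 0.22, adjusted p 0.0393), whose call was lost without any 1 of the 5 libraries (adjusted p 0.0522 to 0.354) and under every other setting except the replicate block. PSAN had 1.64 and 0.785 CPM in abi3-12 and no count in wild type (at least 1.57-fold higher, adjusted p 0.0132), and its call was lost without replicate 1 of abi3-12 (adjusted p 0.134) or replicate 2 of wild type (0.0733). At 20 DAP the counts were 4 higher and 3 lower (all genes, 18.3% and 19.4%), or 9 higher and 2 lower with library totals and 8 higher and 3 lower with DESeq2. PSAH-1 rose most (log2 difference 3.05 ± 0.74, adjusted p 0.000552), and PSAD-2, LHCB4.2 (log2 difference -1.06 ± 0.17, adjusted p 8.42e-07) and LHCB4.3 (log2 difference -0.64 ± 0.21, adjusted p 0.0102) were lower. The call of LHCB4.3 was lost without replicate 1 of abi3-12 (adjusted p 0.0803) or replicate 1 of wild type (0.122), with library totals (0.544) and with only both groups in the fit (0.0629).
At 22 DAP 21 were higher and 3 lower (all genes, 17.2% and 17.5%), and this count rested on single libraries. It was 4 higher and 2 lower with only both groups in the fit. It was 5 higher and 3 lower without replicate 2 of abi3-12, the library that stood apart. It was 9 higher and 3 lower without replicate 1 of wild type and 9 higher and 2 lower without replicate 2 of wild type, but 29 higher and 3 lower without replicate 3 of wild type, which also stood apart. PSBQ-2 had 1.55, 6.75 and 1.25 CPM in abi3-12 and no count in wild type (at least 5.39-fold higher, adjusted p 7.83e-05). PSAD-2, LHCB4.2 (log2 difference -0.98 ± 0.16, adjusted p 6.57e-07) and LHCB4.1 (log2 difference -0.42 ± 0.14, adjusted p 0.0106) were lower. The call of LHCB4.1 was lost without replicate 3 of abi3-12 (adjusted p 0.093) or replicate 2 of wild type (0.21), with library totals (0.802) and with only both groups in the fit (0.14).
At 24 DAP 3 were higher and 3 lower (all genes, 10.1% and 11.2%), or 5 higher and 2 lower with library totals and 3 in all without replicate 1 of wild type. PSBS, a sensor of lumen acidity, rose most (log2 difference 1.97 ± 0.74, adjusted p 0.0463), and the lower ones were PSAD-2 (log2 difference -1.25 ± 0.20, adjusted p 6.82e-07), LHCB4.2 (log2 difference -1.03 ± 0.16, adjusted p 3.99e-07) and LHCB4.1 (log2 difference -0.37 ± 0.14, adjusted p 0.0436). The call of LHCB4.1 was lost without any 1 of the 6 libraries (adjusted p 0.0563 to 0.164) and with library totals (0.279), and that of PSBS with no filter on low counts (0.061) and without any except replicate 3 of abi3-12 (0.0768 to 0.152). In dry seed 6 were higher and 3 lower (all genes, 16.2% and 14.2%).

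In abi3-12 dry seed, PSBW had 28.6, 32.3 and 34.3 CPM against 6.68, 8.38 and 8.61 CPM in wild type (log2 difference 2.00 ± 0.19, adjusted p 3.53e-14). PSBR had 35.1, 37.8 and 38.3 CPM against 21.5, 21.7 and 22.1 CPM (log2 difference 0.77 ± 0.16, adjusted p 8.8e-05). PSBX, another small subunit of photosystem II (log2 difference 2.50 ± 0.63, adjusted p 0.00122), and PSAF, the plastocyanin-docking subunit of photosystem I (log2 difference 1.73 ± 0.46, adjusted p 0.00209), were also called higher. The called members that were lower were PSAD-2, LHCB4.2 and LHCB4.1. PSAD-2 had 4.25, 4.27 and 4.27 CPM against 12, 11.9 and 13.5 CPM (log2 difference -1.55 ± 0.18, adjusted p 1.69e-10), and it was lower at 20 DAP (log2 difference -1.20 ± 0.27, adjusted p 0.000264) and 22 DAP too (log2 difference -1.67 ± 0.19, adjusted p 1.07e-10). LHCB4.1 had 65.4, 50.3 and 56.9 CPM against 69.5, 85.6 and 85.1 CPM (log2 difference -0.48 ± 0.14, adjusted p 0.00439), and LHCB4.2 differed by -0.72 on the log2 scale. LHCB1.3, with 1.99, 2.98 and 4.19 CPM against 1.83, 1.86 and 2.69 CPM, was not called (adjusted p 0.735). Set directly against abi3-12, all 40 members were called higher in abi3-6 dry seed (all genes, 42.2% higher and 33.7% lower). The log2 differences were 10.55 for LHCB1.3, 2.97 for PSBW and 1.78 for LHCB4.3. LHCB2.2, a trimer gene, was at least 612-fold higher, a bound that covers counting error only.

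The dormancy mutant dog1-4 also changed few members. At 20 DAP 5 were called higher and 1 lower (all genes, 7.24% and 5.27%), and the number called was 3 with only both groups in the fit, 10 with DESeq2 and 11 with library totals. The higher ones were PSAD-2, PSBR, PSBW, PSAL and PSAE-2. PSAE-2 had 1.49, 1.85 and 0.311 CPM in dog1-4 and no count in wild type, at least 3.04-fold higher (adjusted p 0.0141). Its call was lost without replicate 2 of dog1-4 (adjusted p 0.068), replicate 2 of wild type (0.0583) or replicate 3 of wild type (0.0607). The one lower was LHCB4.1, with 73.1, 65.3 and 64.4 CPM in dog1-4 against 135, 153 and 178 CPM in wild type (log2 difference -1.20 ± 0.14, adjusted p 3.05e-10).
At 22 DAP 4 were called higher and 3 lower (all genes, 9.49% and 8.33%). LHCB4.3 was the largest rise (log2 difference 0.92 ± 0.23, adjusted p 0.00242, with an adjusted p of 0.053 without replicate 1 of wild type). LHCB4.1 (log2 difference -0.61 ± 0.14, adjusted p 0.000541), LHCB1.3 (log2 difference -2.31 ± 0.83, adjusted p 0.0407) and LHCB1.4, on counts of 0, 0 and 2 in dog1-4 and 8, 2 and 4 in wild type, were lower. Without replicate 3 of wild type, which stood apart, LHCB1.3 was at -0.44 (adjusted p 0.856), and its call was lost without any 1 of the dog1-4 libraries (0.0708 to 0.107), with no filter on low counts (0.0603) and with only both groups in the fit (0.159). LHCB4.1 lost its call with library totals (0.0611). Which direction held more members changed with the fit and with single libraries. The counts were 4 higher and 8 lower with DESeq2, 3 higher and 1 lower with only both groups in the fit and 6 higher and 2 lower with library totals. They were 1 higher and 5 lower without replicate 1 of wild type, 2 higher and 5 lower without its replicate 2, 4 higher and 1 lower without its replicate 3 and 3 higher and 1 lower without replicate 2 of dog1-4. At 24 DAP 5 were higher and none lower (all genes, 8.14% and 7.02%), or 2 without replicate 1 of wild type, 3 without replicate 2 of dog1-4 and 9 with DESeq2. PSAL, a core subunit of photosystem I, rose most there (log2 difference 2.05 ± 0.51, adjusted p 0.00269).

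In dog1-4 dry seed 11 members were higher and none lower (all genes, 16.9% and 13.7%). PSBX had 3.23, 7.38 and 3.3 CPM in dog1-4 dry seed against 0.457, 0.508 and 0.269 CPM in wild type (log2 difference 3.45 ± 0.55, adjusted p 1.02e-06), and PSBQA had 1.5, 2.83 and 1.68 CPM against 0.274, 0 and 0.449 CPM (log2 difference 3.03 ± 0.68, adjusted p 0.000377). LHCB4.3 had 7.82, 7.23 and 6.24 CPM against 3.29, 2.79 and 2.69 CPM, with no overlap (log2 difference 1.28 ± 0.21, adjusted p 1.89e-06). LHCB4.2 (log2 difference 0.51 ± 0.14, adjusted p 0.0024) and PSBP-1 (log2 difference 0.81 ± 0.19, adjusted p 0.000657) were also called higher in dog1-4, whereas LHCB4.2 was called lower in abi3-12. Both comparisons share the wild-type libraries.

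Dry seed of aba2-1 had 10 members called higher and none lower (all genes, 9.58% and 6.22%), or 6 without replicate 1 of aba2-1. PSBX had 4.23, 4.32 and 2.14 CPM in aba2-1 against 0.457, 0.508 and 0.269 CPM in wild type (log2 difference 3.09 ± 0.59, adjusted p 0.000112), PSBQA differed by 2.85 and LHCB4.2 by 0.56 on the log2 scale. In the L2-1 line, edgeR and DESeq2 each called 0 members (all genes, 1.01% called by edgeR), and 1 had an unadjusted p under 0.05. LHCB4.1 had 90.7, 97.1 and 98.6 CPM in L2-1 against 69.5, 85.6 and 85.1 CPM in wild type.

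Joined in one plant, abi3-12 and dog1-4 went with higher levels of most members at each stage, with the larger differences from 22 DAP onward. The median log2 difference of the members from wild type, with members at 0 standing at their bound, was 2.19 at 18 DAP. From 22 DAP onward it was 5.23, then 5.19, with 5.82 in dry seed. The double mutant had 29 members called higher and 1 lower than wild type at 18 DAP (all genes, 21.8% and 19.5%). At 20 DAP 32 were higher and 2 lower (all genes, 29.1% and 29.7%), or 27 higher and 2 lower without replicate 1, which stood apart. It had 38 and 1 at 22 DAP (all genes, 39.5% and 35.7%). At 24 DAP 37 were higher and none lower, with LHCB2.2, LHCB2.3 and LHCB4.1 not called (all genes, 37.9% and 31.5%). In dry seed 39 were higher and none lower (all genes, 40.7% and 33.1%), and the one not called was LHCB2.3. Among genes with no count in wild type were PSAN at 18 DAP (1.92, 2.5 and 2.22 CPM in the double mutant, at least 2.87-fold higher) and LHCA2 at 20 DAP (11.9, 4.71 and 5.81 CPM, at least 18.6-fold higher). PSAH2 was another at 22 DAP (35.7, 34.5 and 29.8 CPM, at least 56.5-fold higher) and 24 DAP (3.42, 10.6 and 17.8 CPM, at least 44.2-fold higher). The members took 0.0406, 0.0415 and 0.0485% of all counts in the double mutant at 18 DAP and 0.0566, 0.0393 and 0.037% at 20 DAP. They took 0.382, 0.419 and 0.33% at 22 DAP, 0.165, 0.197 and 0.246% at 24 DAP and 0.326, 0.304 and 0.313% in dry seed. The libraries of 24 DAP thus all lay below those of 22 DAP and of dry seed.

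LHCB1.3 had 300, 265 and 289 CPM in double-mutant dry seed against 1.83, 1.86 and 2.69 CPM in wild type (log2 difference 7.06 ± 0.70, adjusted p 3.61e-14). PSBS had 113, 119 and 112 CPM against 0.732, 0.423 and 0.269 CPM (log2 difference 7.89 ± 0.42, adjusted p 1.45e-26), and PSBO2 had 49.9, 45.3 and 49 CPM against 0.64, 0.592 and 0.359 CPM (log2 difference 6.47 ± 0.41, adjusted p 8.52e-22). No library of the double mutant overlapped wild type in these genes. PSAE-1, a stromal subunit of photosystem I, had 32.4, 27.1 and 29.2 CPM against a count of 0 in every wild-type library, at least 111-fold higher. PSAH2 had 19.5, 17.1 and 17.4 CPM, at least 67.7-fold higher on the same floor. PSBR had 226, 195 and 206 CPM against 21.5, 21.7 and 22.1 CPM (log2 difference 3.26 ± 0.16, adjusted p 1.34e-27), and it was the highest member per kilobase in the double mutant, at 267 ± 20 CPM (SD, n = 3) beside LHCB1.3 at 231 ± 14.7.

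LHCB4.1 went against the other members in the young double mutant. It was lower than wild type at 18 DAP, with 36.1, 29.4 and 27.9 CPM against 46.8, 80.6 and 70.8 CPM (log2 difference -1.11 ± 0.14, adjusted p 1.57e-09; not called with library totals). It was lower at 20 DAP too, with 58.6, 46.1 and 49.7 CPM against 135, 153 and 178 CPM (log2 difference -1.59 ± 0.14, adjusted p 3.32e-16). The other member called lower was LHCB4.2 at 20 DAP, and at 22 DAP LHCB4.1 alone was called lower, with 82, 97.2 and 73.9 CPM against 101, 132 and 93.7 CPM in wild type, whose ranges overlapped. In dry seed LHCB4.1 was higher, with 116, 104 and 107 CPM against 69.5, 85.6 and 85.1 CPM (log2 difference 0.45 ± 0.13, adjusted p 0.0022). Within the double mutant 35 members were called higher and 1 lower in dry seed than at 18 DAP (all genes, 36.1% and 35.1%). PSBO2 rose most, with 49.9, 45.3 and 49 CPM in dry seed against 1, 0 and 0.477 CPM at 18 DAP (log2 difference 6.49 ± 0.41, adjusted p 6.73e-22), and LHCB4.3 fell (log2 difference -0.68 ± 0.15, adjusted p 6.77e-05; adjusted p 0.111 with library totals).

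The interaction of abi3-12 and dog1-4 in dry seed, that is the double mutant's log2 difference from wild type minus both single mutants' differences, was called above 0 for 28 members and below 0 for none (all genes, 16.4% above and 20.9% below). For LHCB1.3 it was 6.81 (SE 1.11, adjusted p 9.34e-07). The means behind it were 285 ± 18.1 CPM in the double mutant, 3.05 ± 1.1 CPM in abi3-12, 1.78 ± 0.12 CPM in dog1-4 and 2.13 ± 0.489 CPM in wild type (SD, n = 3 each). For LHCB4.1 the interaction was 0.88 (SE 0.19, adjusted p 0.000121). The 12 members not called were LHCB2.1, LHCB2.2, LHCB2.3, LHCB6, PSAE-1, PSAH2, PSAK, PSAN, PSBQA, PSBQ-2, PSBW and PSBX. For LHCB2.2, LHCB2.3, LHCB6, PSAE-1, PSAH2 and PSAK the SE was too large for the test to decide. The estimate was 10.71 (SE 60583.06) for PSAH2 and 4.01 (SE 37.64) for PSAE-1, beside 0.50 (SE 0.25) for PSBW. Against abi3-12 itself, the double mutant had 30 members higher and 1 lower, LHCB4.1 (log2 difference -1.30 ± 0.14, adjusted p 6.69e-12), at 20 DAP (all genes, 17.9% and 19%). It had 36 higher and none lower at 22 DAP (all genes, 36.8% and 32.9%) and 39 higher and none lower in dry seed (all genes, 38.8% and 30.4%). Of members with no count in abi3-12, PSBO2 was higher at 20 DAP (at least 3.48-fold higher) and PSAH2 at 22 DAP (at least 110-fold higher) and in dry seed (at least 79.3-fold higher).

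With aba2-1 added to either single mutation, most members were called higher than in wild type. In dog1-4 aba2-1 dry seed 27 were called higher and 1 lower than in wild type (all genes, 25.3% and 23.1%), and in abi3-12 aba2-1 33 were higher and 1 lower (all genes, 32.6% and 28.9%). The member called lower was PSAD-2 in both, with 7.73, 7.04 and 9.77 CPM in dog1-4 aba2-1 and 6.62, 6.69 and 6.82 CPM in abi3-12 aba2-1, against 12, 11.9 and 13.5 CPM in wild type. Its log2 differences were -0.62 (SE 0.17, adjusted p 0.00162) and -0.89 (SE 0.17, adjusted p 5.25e-06), and neither line's libraries overlapped wild type. PSBR had 68.6, 77.8 and 75.3 CPM in dog1-4 aba2-1 and 112, 107 and 109 CPM in abi3-12 aba2-1, against 21.5, 21.7 and 22.1 CPM (1.76 and 2.33 on the log2 scale, both called). PSBX had 15.7, 15.9 and 11.6 CPM in dog1-4 aba2-1 and 31.1, 26.1 and 26.9 CPM in abi3-12 aba2-1, against 0.457, 0.508 and 0.269 CPM in wild type. PSAE-1, with no count in wild type, was at least 6.54-fold higher in dog1-4 aba2-1 and at least 17.5-fold higher in abi3-12 aba2-1. The interaction of abi3-12 and aba2-1 was called above 0 for 7 members and below 0 for none (all genes, 5.25% above and 8.98% below). These were LHCA4, PSAD-1, PSAD-2, PSAH-1, PSBO1, PSBP-1 and PSBR, with 2.66 (SE 0.79, adjusted p 0.0144) for PSBO1 (0.0725 without replicate 3 of wild type), 1.31 (SE 0.27, adjusted p 0.000404) for LHCA4 and 1.13 (SE 0.27, adjusted p 0.00178) for PSBP-1. DESeq2, and edgeR with only the 4 groups concerned, each called 15 members for this interaction.

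With all 3 mutations, abi3-12 dog1-4 aba2-1, all 40 members were called higher than in wild type (all genes, 41.3% higher and 34% lower). PSAE-1 had 66, 51.7 and 50.8 CPM and no count in wild type (at least 211-fold higher). They took 0.83, 0.738 and 0.693% of all counts, against 0.0141, 0.0169 and 0.0165% in wild type. LHCB1.3 had 1400, 1110 and 1060 CPM against 1.83, 1.86 and 2.69 CPM in wild type (log2 difference 9.12 ± 0.75, adjusted p 1.01e-17), LHCB4.1 had 168, 160 and 154 CPM against 69.5, 85.6 and 85.1 CPM (log2 difference 1.00 ± 0.13, adjusted p 7.28e-10), and PSAD-2 had 29.5, 26.3 and 26.4 CPM against 12, 11.9 and 13.5 CPM (log2 difference 1.13 ± 0.15, adjusted p 1.06e-09). Relative to the double mutant, the triple had 37 members called higher and none lower (all genes, 6.45% and 6.84%). The 3 not called were LHCB4.3, PSBS and PSBX. PSBS had 164, 151 and 139 CPM in the triple mutant against 113, 119 and 112 CPM in the double mutant. The largest difference was that of LHCB2.2, with 9.26, 8.03 and 8.62 CPM against 0.58, 0.385 and 0.661 CPM (log2 difference 3.94 ± 0.56, adjusted p 2.08e-06; adjusted p 0.331 with DESeq2), and LHCB1.3 differed by 2.06 (SE 0.51, adjusted p 0.00324).

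With cyp707a2 added to the same double mutant, members were lower. Against the double mutant, abi3-12 dog1-4 cyp707a2 had no member called higher at any stage. At 18 DAP 16 were called lower (all genes, 2.49% lower and 3.96% higher), with PSAD-1 the largest fall (log2 difference -2.35 ± 0.37, adjusted p 7.33e-06). This count was 10 without replicate 3 of the double mutant, 9 without replicate 2 of the triple mutant and 8 with only the 2 groups in the fit. At 20 DAP 16 were lower (all genes, 2.5% lower and 3.34% higher), with LHCB1.2 the largest fall (log2 difference -2.33 ± 0.58, adjusted p 0.00806; -1.09 and not called without replicate 1 of the double mutant, and adjusted p 0.129 with only both groups in the fit). This count was 1 higher and 5 lower without replicate 1 of the double mutant, the library that stood apart. It was 8 without replicate 1 of the triple mutant, 7 without its replicate 2 and 6 with only the 2 groups in the fit.
At 22 DAP 37 members were lower (all genes, 36% lower and 31.9% higher), and LHCB2.3, LHCB4.1 and LHCB4.3 were not called. At 24 DAP 38 were lower (all genes, 29.7% lower and 24% higher), and LHCB2.2 and LHCB2.3 were not called. PSAH2 had no count in the triple mutant at both stages, against 35.7, 34.5 and 29.8 CPM in the double mutant at 22 DAP (at least 122-fold lower) and 3.42, 10.6 and 17.8 CPM at 24 DAP (at least 52-fold lower). In dry seed 37 were lower (all genes, 34.3% lower and 28% higher), and LHCB2.2, LHCB2.3 and LHCB4.3 were not called. PSAK, a core subunit of photosystem I, had no count in the triple mutant's dry seed against 7.12, 5.22 and 5.77 CPM in the double mutant (at least 32.1-fold lower).

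LHCB1.3 had 1.6, 3.8 and 2.07 CPM in the cyp707a2 triple mutant's dry seed against 300, 265 and 289 CPM in the double mutant (log2 difference -6.87 ± 0.68, adjusted p 1.05e-13). In wild type it had 1.83, 1.86 and 2.69 CPM, and those libraries overlapped the triple mutant's. PSBS fell less far, with 9.98, 11.1 and 12.9 CPM in the triple mutant against 113, 119 and 112 CPM in the double mutant (log2 difference -3.34 ± 0.27, adjusted p 4.45e-17). Against wild type, at 0.732, 0.423 and 0.269 CPM, PSBS was still higher in the triple mutant (log2 difference 4.56 ± 0.48, adjusted p 1.43e-12), as was PSBR (log2 difference 1.55 ± 0.16, adjusted p 4.64e-13). LHCB4.1 had 68.4, 66.5 and 64.7 CPM against 116, 104 and 107 CPM in the double mutant (log2 difference -0.72 ± 0.13, adjusted p 4.23e-06). LHCB4.3 had 13.7, 14.4 and 14.2 CPM against 14.6, 16.7 and 17.9 CPM, a difference that was not called (adjusted p 0.221), although it was called lower with library totals (0.00141) and with only both groups in the fit (0.047). Wild type had 3.29, 2.79 and 2.69 CPM.

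Relative to wild type, the cyp707a2 triple mutant had 15 members higher and 2 lower at 18 DAP (all genes, 17.2% and 16.7%), or 25 higher and 0 lower with library totals. At 20 DAP 22 were higher and 2 lower (all genes, 25.9% and 25.8%). At 22 DAP the counts were 16 and 3 (all genes, 22.6% and 22.5%), or 19 higher and 1 lower with library totals. At 24 DAP they were 20 and 2 (all genes, 22.6% and 21.3%). LHCB4.1 and LHCB4.2 were lower at each of these stages, and LHCB4.1 differed by -0.83 at 18 DAP, -1.45 at 20 DAP, -0.62 at 22 DAP and -0.34 at 24 DAP on the log2 scale. With library totals LHCB4.1 was not called at 18, 22 and 24 DAP, and its 24 DAP call was also lost with RLE factors, no filter or DESeq2 and without any 1 of 5 of the 6 libraries (adjusted p 0.0538 to 0.189). PSAD-2 was lower at 22 DAP (log2 difference -0.42 ± 0.17, adjusted p 0.0383), and its call was lost without replicate 1 or 2 of wild type, replicate 2 or 3 of the triple mutant (adjusted p 0.0954 to 0.155) and under every other setting except the replicate block, DESeq2 included (0.0982). Members that rose included LHCA2 at 20 DAP (at least 3.91-fold higher) and 24 DAP (log2 difference 5.21 ± 0.85, adjusted p 5.37e-07) and PSBS at 22 DAP (log2 difference 4.40 ± 0.60, adjusted p 4.94e-09).
In dry seed the counts were 20 higher and 2 lower (all genes, 26% and 22.2%), and the 2 lower were PSAD-2 and LHCB4.2. PSAE-1 had 0.678, 1.12 and 1.09 CPM and no count in wild type (at least 3.61-fold higher). The members took 0.0312, 0.0349 and 0.0386% of all counts in this line's dry seed, against 0.0141, 0.0169 and 0.0165% in wild type. Seed-filling messages were at 58800 to 65300 CPM there, against 7390 to 12600 CPM in the double mutant and 62300 to 72200 CPM in wild type. Within the triple mutant 12 members were called higher and 15 lower in dry seed than at 18 DAP (all genes, 32.6% and 36.7%), or 12 higher and 11 lower with library totals. PSAD-1 rose most (log2 difference 3.05 ± 0.34, adjusted p 2.56e-12), and PSAK had no count in dry seed against 4.25, 1.87 and 3.71 CPM at 18 DAP (at least 17.5-fold lower).

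**Figure D4:**
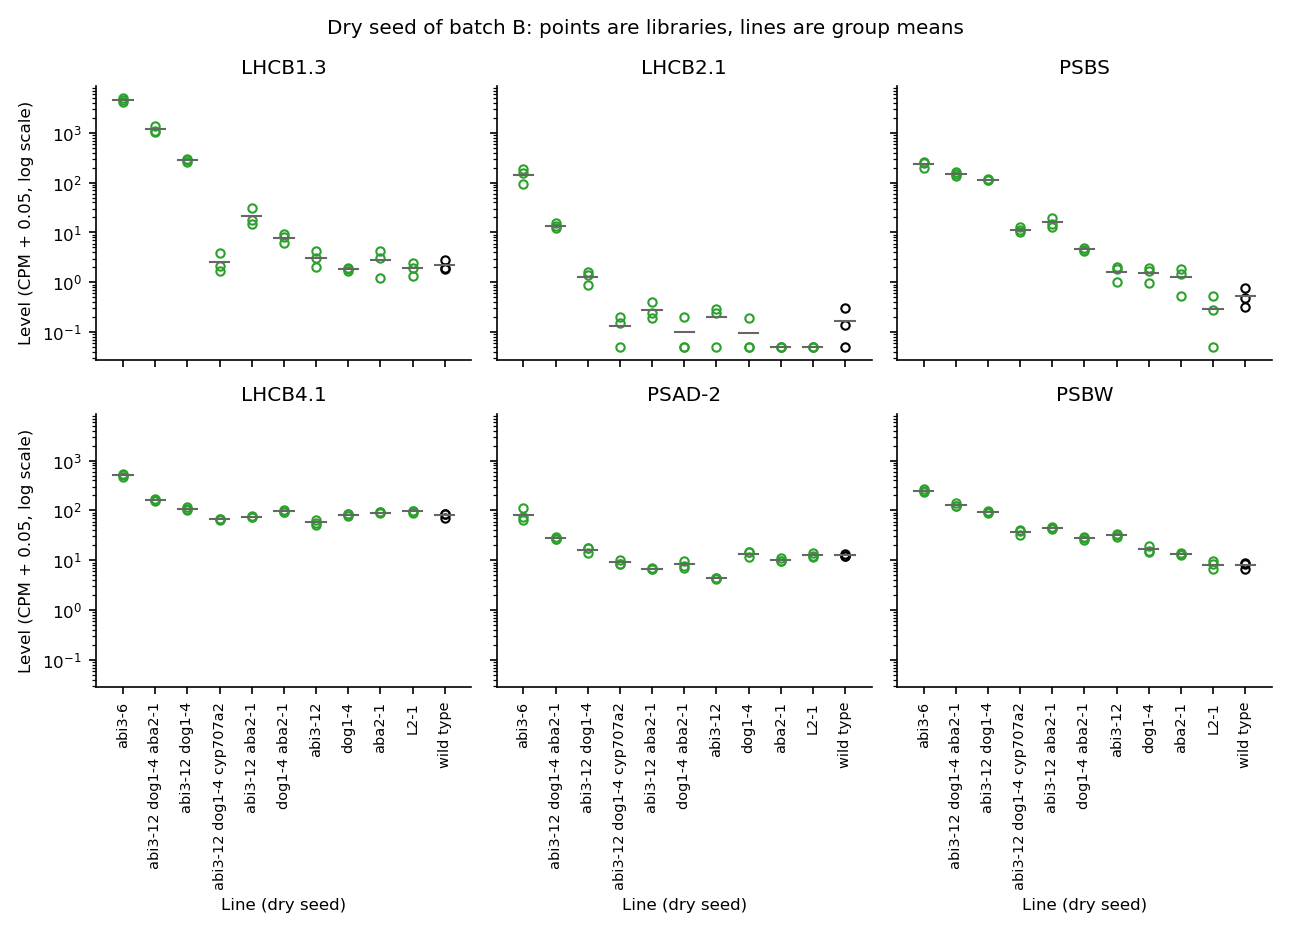
Level in dry seed of 6 members in every library of batch B (y axis, CPM plus 0.05, log scale; x axis, lines with wild type at the right). Each point is a library, with 3 per line. Short lines are group means. The means of LHCB1.3 lie between 1.78 and 4530 CPM and those of PSBS between 0.237 and 235 CPM, whereas those of LHCB4.1 lie between 57.5 and 515 CPM and those of PSAD-2 between 4.26 and 82.7 CPM.

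Copies of one subunit could differ in how far their levels changed across lines. For CP29, LHCB4.3 had 15.4, 10.6 and 13.8 CPM in abi3-6 dry seed and 17.2, 15.4 and 16.2 CPM in the aba2-1 triple mutant. It had 14.6, 16.7 and 17.9 CPM in the double mutant and 13.7, 14.4 and 14.2 CPM in the cyp707a2 triple mutant, against 3.29, 2.79 and 2.69 CPM in wild type. The LHCB1.3 means of these lines were 4530 ± 357 CPM in abi3-6, 285 ± 18.1 CPM in the double mutant and 2.49 ± 1.16 CPM in the cyp707a2 triple mutant (SD, n = 3 each). LHCB4.2 had 260 ± 40.9 CPM in abi3-6, 65.1 ± 4.68 CPM in the aba2-1 triple mutant, 15.2 ± 1.72 CPM in dog1-4 and 6.51 ± 0.552 CPM in abi3-12, against 10.7 ± 0.254 CPM in wild type. Of the PSAD pair, PSAD-1 was the higher copy in abi3-6, in the double mutant and in the aba2-1 triple mutant. Its means there were 230 ± 42.8, 60.8 ± 4.25 and 85.6 ± 7.99 CPM, beside 82.7 ± 25.6, 16.3 ± 1.88 and 27.4 ± 1.81 CPM for PSAD-2. In wild-type dry seed PSAD-1 had 1.2 ± 0.219 CPM and PSAD-2 had 12.5 ± 0.919 CPM. Wild type at 12 DAP in batch A had PSAD-1 as the higher copy, at 165 ± 6.16 CPM beside 127 ± 4.78 CPM for PSAD-2 (SD, n = 3).

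The LHCB2 copies summed to 184, 372 and 361 CPM in abi3-6 dry seed, 24.1, 21.2 and 24.5 CPM in the aba2-1 triple mutant and 2.27, 1.21 and 2.07 CPM in the double mutant, against 0, 0.254 and 0.0897 CPM in wild type. As a share of member counts they made up 1.53% ± 0.471 in abi3-6 and 0.0804% ± 0.0217 in the double mutant (SD, n = 3 each), where LHCB1 copies made up 21.7% ± 0.937. In wild type at 12 DAP the LHCB2 share was 2.2% ± 0.047. LHCB2.1, the copy with most counts, had 1.53, 0.824 and 1.32 CPM in the double mutant's dry seed against 0, 0.254 and 0.0897 CPM in wild type.

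**Figure D5:**
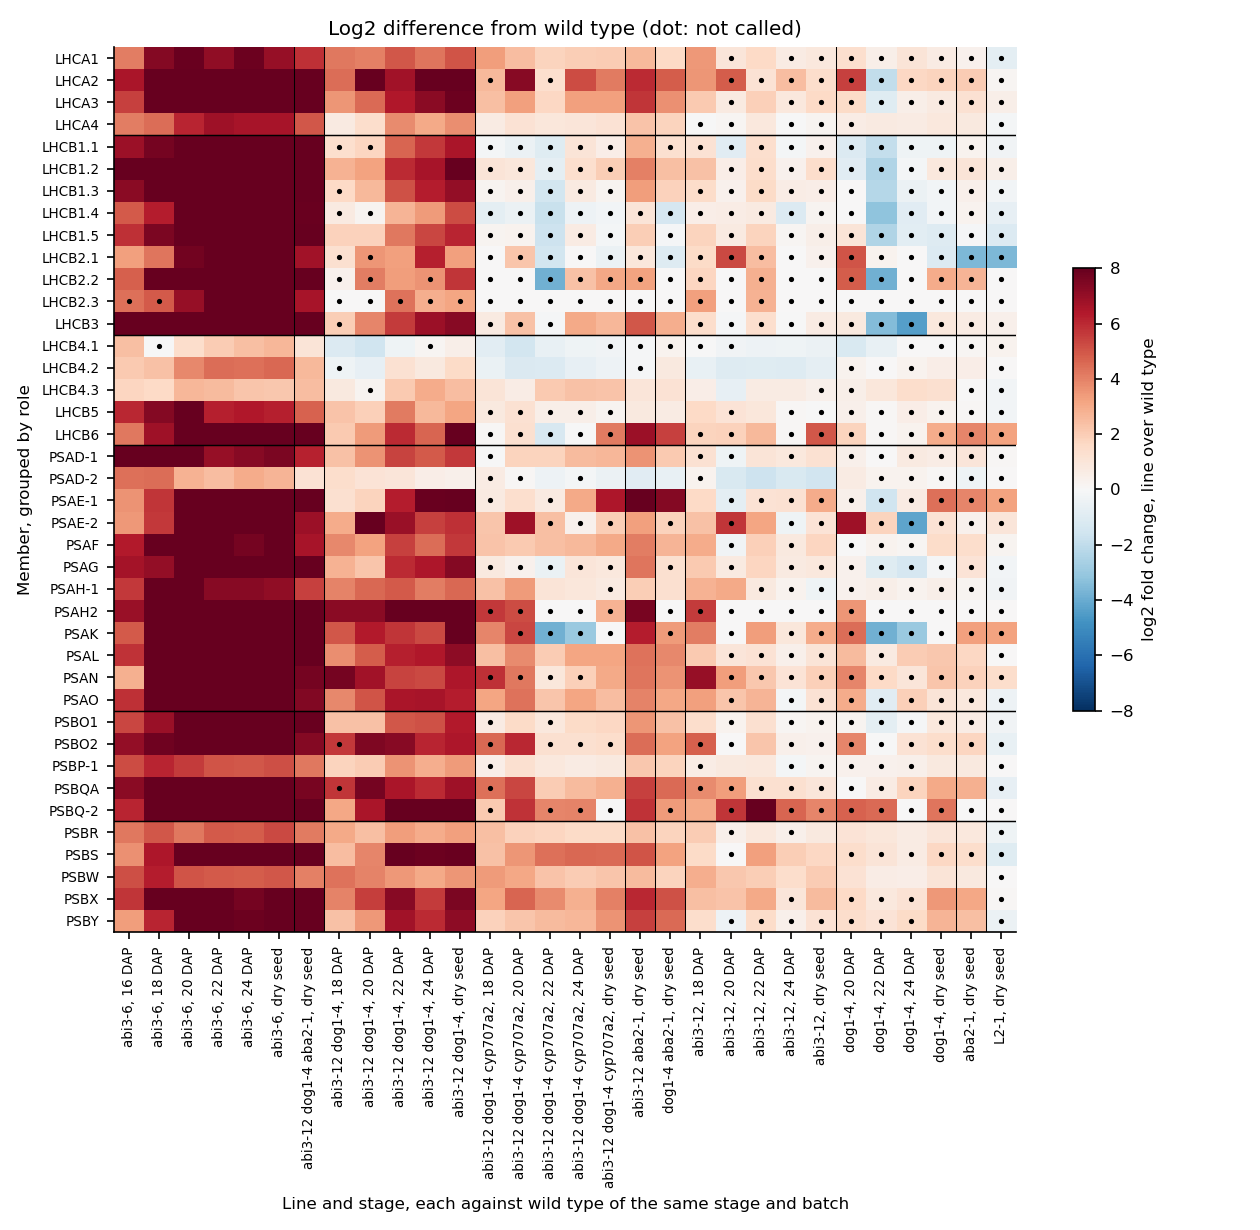
Log2 difference of each member (y axis, grouped by role) from wild type of the same stage and batch in each line and stage (x axis), with red for higher and blue for lower in the named line and colours held at plus or minus 8. A dot marks a difference that was not called, and values of members with no count in a group depend on the prior count of the fit. The abi3-6 columns are red except for LHCB4.1 at 18 DAP (log2 difference -0.04). The double mutant is darkest from 22 DAP onward, and L2-1 is dotted throughout.

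Other genes of photosynthesis were read from 4 lists that hold no member. Of 11 genes of electron transport and the plastid ATP synthase, 10 were called higher and 1 lower in abi3-6 dry seed (all genes, 43.2% higher and 34.5% lower), with a median log2 difference of 5.46 against 0.17 over all genes. PETC, the Rieske protein of the cytochrome b6f complex, had 415 ± 43.3 CPM in abi3-6 and 9.44 ± 0.365 CPM in wild type (SD, n = 3 each; adjusted p 9.77e-34). The one lower was ATPC2, a second copy of the gamma subunit of the ATP synthase, with 5.29 ± 0.313 CPM in abi3-6 and 19.6 ± 1.82 CPM in wild type (adjusted p 3.08e-22). The same list had 10 higher and 1 lower in the double mutant's dry seed (all genes, 40.7% higher and 33.1% lower), and 1 higher and 10 lower in dry wild-type seed against 12 DAP (all genes, 37.3% higher and 45.4% lower).

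Of 11 minor or assembly proteins of the photosystems, 10 were called higher and 1 lower in abi3-6 dry seed (all genes, 43.2% and 34.5%; median log2 difference 3.11). The lower one was LHCB7, a rarely expressed antenna relative, with 12 ± 2.08 CPM in abi3-6 and 22.5 ± 1.89 CPM in wild type (SD, n = 3 each; adjusted p 4.01e-08). In wild type LHCB7 was higher in dry seed than at 12 DAP, with 19.5 ± 0.282 CPM against 8.36 ± 1.5 CPM (adjusted p 1.71e-09), the opposite of all 40 members.

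Of 11 genes for the import, membrane insertion and regulation of antenna proteins, 10 were higher and 1 lower, the kinase gene STN7, in abi3-6 dry seed (all genes, 43.2% and 34.5%; median log2 difference 1.59), and 3 were higher and 4 lower in dry wild-type seed against 12 DAP (all genes, 37.3% and 45.4%). GLK1, a transcription factor that activates photosystem genes, had 50 ± 3.91 CPM in abi3-6 dry seed and 4.13 ± 0.0722 CPM in wild type (SD, n = 3 each; adjusted p 2.28e-26). Its paralogue GLK2 had 78.5 ± 13.4 CPM in abi3-6 and 46 ± 2.49 CPM in wild type (adjusted p 1.9e-05). Of 8 stress relatives of the antenna proteins, 3 were higher and 4 lower in abi3-6 at 16 DAP (all genes, 33.3% and 33.2%), and 7 were higher and none lower in dry seed (all genes, 43.2% and 34.5%). ELIP1, an early light-induced protein, had 19.7 ± 5.35 CPM in abi3-6 at 16 DAP (SD, n = 2) and 69.6 ± 18.6 CPM in wild type (n = 3; adjusted p 4.78e-05). In dry seed it had 909 ± 92.8 CPM in abi3-6 and 17.9 ± 2.07 CPM in wild type (adjusted p 9.86e-24).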

How the data were processed

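Counts per gene were deposited by the authors as 1 table of raw read counts for 37336 genes and 123 libraries. Per the submitters' processing notes, HISAT2 2.1.0, Cufflinks, SAMtools and StringTie 1.3.2 were used with the TAIR10 build. Which of these tools made the counts, and whether they used strand, is not given in the sources used here.

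The batches were fitted separately in edgeR 4.0.16 (R 4.3.3): filterByExpr with a count minimum of 10, TMM factors, 1 coefficient per group, estimateDisp, glmQLFit and glmQLFTest, two-sided. P-values were adjusted by Benjamini-Hochberg over all genes tested, and calls were made at 0.05. A standard error is the log2 fold change divided by the square root of F. Where all libraries of a group had a count of 0, a bound was computed against a floor of 3 counts per library. CPM per kilobase used the longest RefSeq transcript of TAIR10.1. The fit was run on simulated counts in which both groups shared wild-type means and a balanced set of well-counted genes was changed. This simulation did not test low counts, or scaling between groups that differ in many genes. Alternatives were RLE factors, library totals, no filter, DESeq2 1.42.0, a replicate block, only the groups compared, and leaving out each library, where the filter and the negative binomial dispersions of all libraries were kept and the rest was refitted.

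Members given values in every library were a fixed panel of roles, the member with the largest fitted rise and fall in each comparison (a fitted value over a group at 0 depends on the prior count, so such members are not ranked in the text), and members that went against most called ones. Where such a member had too few counts for a fold, its counts or its name alone are given. The members, panel, gene lists and motifs were chosen with earlier results of these data known. Intervals and floors cover counting error only.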

Additional observations from a re-analysis of the deposited data

Results flagged for a closer look

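In dry seed the effect of dog1-4 on the members differed with the allele of ABI3 by an interaction test across all genes (edgeR's quasi-likelihood test, Benjamini-Hochberg adjustment). It was called for 28 of 40 members, all above 0, where 16.4% of all genes were called above 0 and 20.9% below. The interaction was 6.81 on the log2 scale for LHCB1.3 and 0.88 for LHCB4.1. The effect of aba2-1 differed with abi3-12 for 7 members, with interactions of 2.66 for PSBO1, 1.31 for LHCA4 and 1.13 for PSBP-1 (all genes, 5.25% above 0 and 8.98% below). DESeq2 called 15 members for it, and the call of PSBO1 was lost without replicate 3 of wild type (adjusted p 0.0725). No group had more than 3 libraries, so single libraries were not tested as outliers within a group. The 3 libraries that stood apart by their LHCB1 counts were noted with the values beside the results they touch.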

How the results depend on the processing

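The 58 comparisons were recomputed with 6 other settings, and without each library in turn. RLE factors and the replicate block changed no count of members called by over 1.5 times and no majority direction. Same-numbered libraries of different groups deviated together with a median correlation of 0.00554 (batch A, from -0.115 to 0.204) and 0.00115 (batch B, from -0.307 to 0.343). A median over all pairs cannot tell whether some groups were paired. The replicate block left 40 members called in abi3-6 dry seed. With only the groups compared in the fit, the counts were 19 for wild type at 18 against 16 DAP, 5 at 20 against 18 DAP and 4 at 22 against 20 DAP in batch A, and 1 at 24 against 22 DAP and 15 (8 higher) in dry seed against 18 DAP in batch B. They were 6 for abi3-12 at 22 DAP, 3 and 4 for dog1-4 at 20 and 22 DAP, 8 and 6 for the cyp707a2 triple against the double mutant at 18 and 20 DAP and 15 for the interaction with aba2-1. DESeq2 called 11 for wild type at 22 against 20 DAP in batch A, and in batch B 17 at 20 against 18 DAP, 21 at 22 against 20 DAP, 14 at 24 against 22 DAP and 26 in dry seed against 18 DAP. It called 11 for abi3-12 at 20 DAP, 10, 12 (8 lower) and 9 for dog1-4 at 20, 22 and 24 DAP and 15 for the interaction with aba2-1. Library totals gave 11 for wild type at 22 against 20 DAP in batch A, and in batch B 19, 2 at 24 against 22 DAP and 15 (10 higher) in dry seed against 18 DAP. They gave 11 for abi3-12 at 20 DAP, 11 for dog1-4 at 20 DAP and 23 (12 higher) for the cyp707a2 triple mutant's dry seed against 18 DAP, and put LHCB4.1 in wild type at 22 against 20 DAP of batch B at 0.10 on the log2 scale. With no filter, 2 members were called in wild type at 24 against 22 DAP and 13 (7 higher) in dry seed against 18 DAP. Library totals moved the median of all genes by -0.42 to 1.26 on the log2 scale, by over 0.1 in 51 of 58 comparisons, and RLE factors by -0.15 to 0.24, by over 0.1 in 16, so folds are relative to that shift. The causes were not tested.

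Without each library in turn, 46 of the 58 counts stayed within 1.5 times with the same majority direction. In batch A wild type at 22 against 20 DAP ranged from 4 to 7. In batch B wild type ranged from 8 to 12 at 20 against 18 DAP, 2 to 8 at 24 against 22 DAP and 13 to 18 in dry seed against 18 DAP. The comparisons with wild type ranged from 9 to 25, 8 to 32 and 3 to 5 for abi3-12 at 18, 22 and 24 DAP, 4 to 7 and 2 to 6 for dog1-4 at 22 and 24 DAP and 6 to 11 for aba2-1. The cyp707a2 triple mutant against the double mutant ranged from 9 to 16 at 18 DAP and 6 to 16 at 20 DAP. Depth limits members with few counts, and a count of 0 in all libraries of a group gave a bound and no fold.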
